A study of Mus musculus with 6 samples.

Results

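Collagen chain genes were described in heart tissue of mice that overexpress the human angiotensin II type 1 receptor (hAT1R) and of non-transgenic mice. A gene was taken as a collagen chain when its symbol read Col, a number, the letter a and a number, and a probe set (the group of short probes that reads 1 transcript on an Affymetrix array) was taken when the platform annotation gave it that gene alone. The rule found 82 probe sets of 42 collagen genes among 45037 non-control probe sets of 18193 genes. Of these, 40 probe sets of 25 collagen genes had a mean log2 value above the median probe set of the array (log2 3.29) and are called measured here. The series held 6 arrays, 3 from hearts labelled hAT1R transgenic and 3 from hearts labelled non-transgenic, all on the C57BL/6 strain. The labels name no treatment, and the design text says that the animals were matched in age and sex without giving an age. The promoter that drives the transgene is not given in the sources used here. Values are log2 expression per probe set as the authors deposited it, and a change is the labelled transgenic mean minus the non-transgenic mean.

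Collagens are the main proteins of the extracellular matrix, and each is built from 3 chains wound into a triple helix. Fibrillar collagens, made in the heart mainly by fibroblasts, form the tensile fibres between muscle cells, whereas type IV forms the sheet-like basement membrane around muscle cells and capillaries. Type VI makes beaded filaments that link both, short-chain collagens make hexagonal lattices, and the FACIT collagens (fibril-associated with interrupted triple helices) sit on the surface of fibres. Deposition of fibrillar collagen in the heart is known as fibrosis, and angiotensin II signalling through its type 1 receptor is a textbook stimulus for it.

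The group names rest on the sample labels. The chip lot field of the instrument's records carries the opposite word: "control" for the labelled transgenic hearts and "transgene" for the others. With the typed word in place of the label, every sign below would turn, so the group is written as labelled transgenic. The human transgene has no probe set among those annotated here. The mouse receptor gene Agtr1a had a change of -0.05 ± 0.26 (limma log2 change ± SE, adjusted p = 0.946), which does not check the labels. The labelled transgenic arrays were scanned before the others, so scan order and group cannot be told apart. All 3 of them and non-transgenic array 1 were run on fluidics station 2, and non-transgenic arrays 2 and 3 on station 3. Whether every array came from its own animal is not in the labels. The p-values therefore reflect the spread among these 6 samples, part of which may be technical, and 3 arrays a group limit the precision. All 8 cardiomyocyte markers were measured, with a summed level of log2 18.08 to 18.12 on the labelled transgenic arrays and 18.09 to 18.14 on the others, and 0 of 3 lung markers were.

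Most collagen genes lay higher in the labelled transgenic hearts. The change was positive in 21 of the 25 measured genes, against 52.4% of all 11016 measured genes, and its median over collagen genes was 0.40 against 0.01 over all genes. The positive changes include small ones, such as 0.02 for Col16a1 and 0.06 for Col4a2. Col8a1, a short-chain collagen, was the 1 collagen gene that passed the test over the whole array, at about 3-fold. Each gene is read from its brightest measured probe set. Of 40 collagen probe sets 2 were higher at a limma adjusted p under 0.05, both of Col8a1, where 0.178% of all 22518 probe sets were, and 0 were lower, where 0.04% were. At an unadjusted limma p under 0.05, 10 of 25 genes were higher, which is 40% beside 10.4% of all genes, and 0 were lower, beside 7.76%. In 7 genes all 3 labelled transgenic values lay above all 3 others, which is 28% beside 14.3% of all genes, and in 0 genes they lay below, beside 10.9%. Collagen genes varied together from array to array, as described below, so the 25 genes are not 25 independent observations.

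These counts moved with single arrays, and so did the background shares. At an unadjusted p under 0.05, 4 collagen genes were higher without labelled transgenic array 2, without labelled transgenic array 3 or without non-transgenic array 1, which is 16% beside 9.5%, 6.94% and 10.4% of all genes. Without non-transgenic array 3, 6 genes were, which is 24% beside 7.44%. Without labelled transgenic array 1, the lowest of its group in most collagen genes, 14 genes had no overlap between groups, which is 56% beside 19.8% of all genes. Without non-transgenic array 2, the highest of its group in most collagen genes, 14 had none as well, 56% beside 22.5%. Leaving out the other 4 arrays gave 7 or 8 genes without overlap, 28% or 32%, beside 16.7% to 21.6% of all genes.

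With the fluidics station as a block the change is read within station 2, where the non-transgenic arm is array 1 alone. That array was the lowest of its group in 20 of the 25 collagen genes. A low array 1 and a difference between stations cannot be told apart in the larger changes within station 2. By this reading 24 of 25 genes were positive, the median was 0.48, and 8 genes, or 32%, were higher at an unadjusted p under 0.05, beside 6.97% of all genes.

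**Figure D1:**
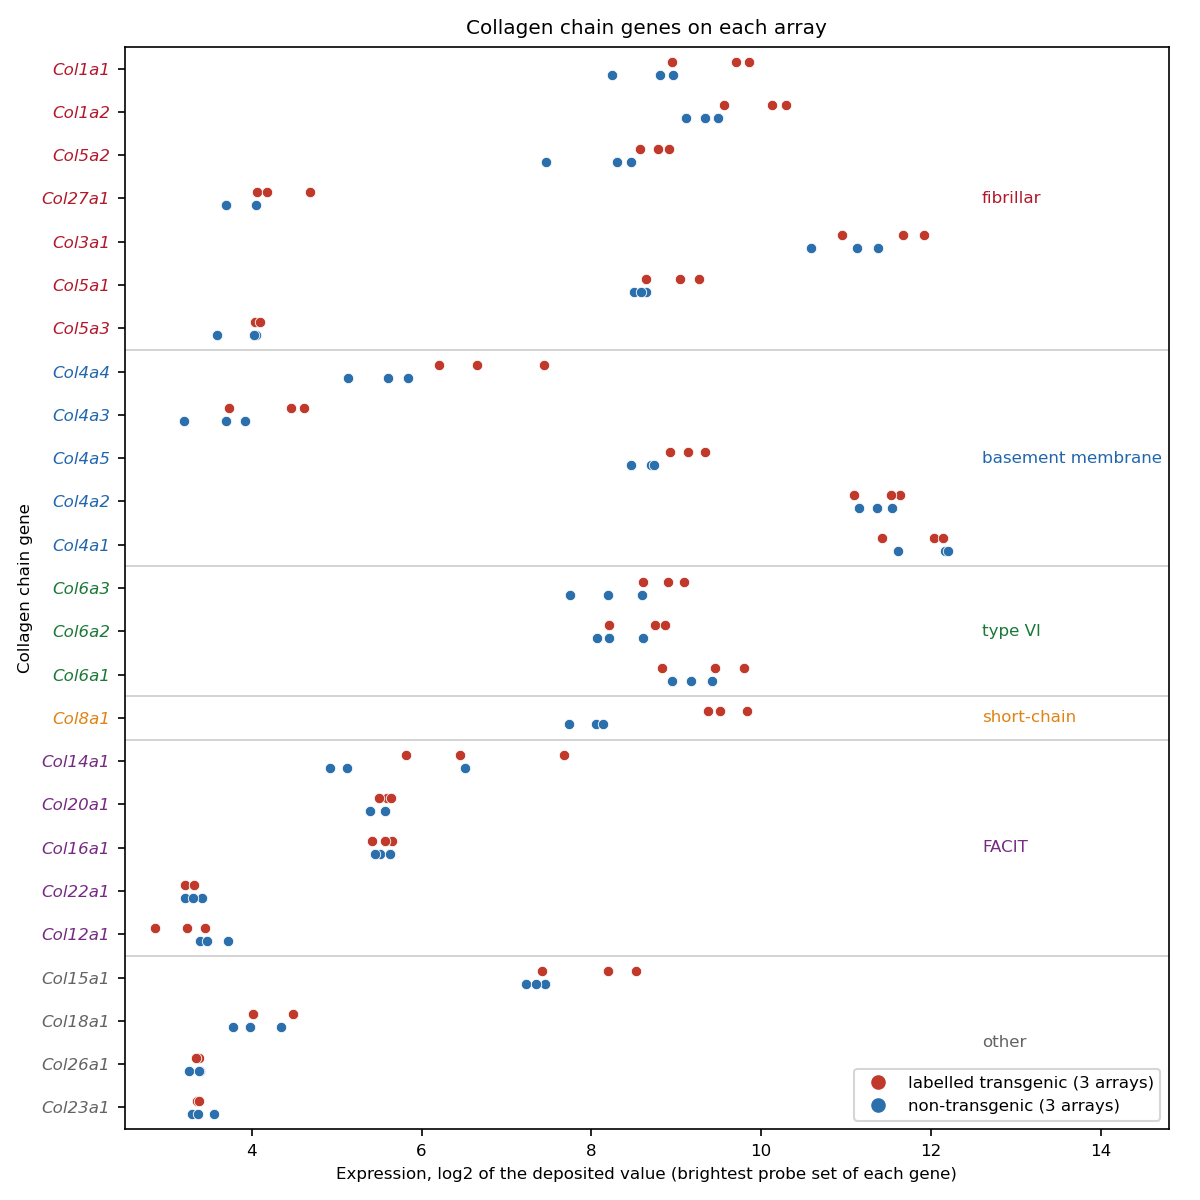
Each point is the log2 value of 1 array for the brightest probe set of a measured collagen gene (x axis, log2 units), with genes on the y axis grouped and coloured by class. Red points are the 3 labelled transgenic arrays and blue points the 3 non-transgenic arrays; Col8a1 is separated by more than 1 log2 unit, and the 2 groups of Col4a1 and Col4a2 lie over each other.

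The short-chain class had 3 genes on the array, and 1 was measured. Col8a1 encodes a chain of type VIII collagen, which forms lattices in vessel walls and is also made by activated cardiac fibroblasts. It is the member on which the probe set calls rest, so the bases before its transcription start are printed here. They come from RefSeq, build GRCm38.p6, at chr16:57754738-57754987 on the minus strand. Capitals mark 4 matches to the GC box, which Sp factors bind, and 1 match to the SMAD motif, the element bound by SMAD factors of transforming growth factor beta signalling.

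Col8a1: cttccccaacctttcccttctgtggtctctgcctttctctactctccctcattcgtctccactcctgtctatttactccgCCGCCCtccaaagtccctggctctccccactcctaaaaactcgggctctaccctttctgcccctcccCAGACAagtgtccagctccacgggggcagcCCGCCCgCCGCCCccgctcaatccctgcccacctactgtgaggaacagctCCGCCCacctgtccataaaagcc

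The brightest Col8a1 probe set stood at 9.37, 9.52 and 9.83 on labelled transgenic arrays 1 to 3 and at 7.74, 8.05 and 8.14 on non-transgenic arrays 1 to 3. The groups did not overlap, and the gap between the lowest value of the first and the highest of the second exceeded the range within either. Col8a1 rose by 1.60 ± 0.16 (log2 change ± SE, limma adjusted p = 0.036), a fold of 3.02 with a 95% interval from 2.31 to 3.94. The second Col8a1 probe set read 8.29, 8.64 and 8.87 against 6.94, 7.09 and 7.07, a change of 1.57 ± 0.15 (adjusted p = 0.0359). The dimmest read 5.67, 5.30 and 6.37 against 3.54, 4.41 and 4.76. Its change of 1.55 ± 0.39 was of like size but more spread, and it missed the threshold (adjusted p = 0.154). All 3 probe sets thus gave about the same difference, none with overlap between groups.

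The size of the Col8a1 difference ran from 1.47 to 1.83 over 17 alternatives. Its adjusted p was between 0.0183 and 0.16 and passed 0.05 in 7 of them. The call was lost without labelled transgenic array 2 (adjusted p = 0.16) or 3 (0.132), and without non-transgenic array 1 (0.122), 2 (0.118) or 3 (0.125). It was also lost within station 2 (change 1.83, adjusted p = 0.0766), with the level of Xist, a transcript of female cells, as a term (1.56, 0.112), and without the brightness filter (0.0806). The limma adjusted p of Col8a1 was 0.149 with the replicate block and 0.0502 with its probe sets averaged, so the call was lost there too. The other 2 short-chain genes were dim. Col8a2, the partner chain of type VIII, read 2.89, 2.66 and 2.66 against 2.60, 2.66 and 2.65. Col10a1, the collagen of growth plate cartilage, read 2.36, 2.37 and 2.36 against 2.33, 2.37 and 2.89.

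**Figure D2:**
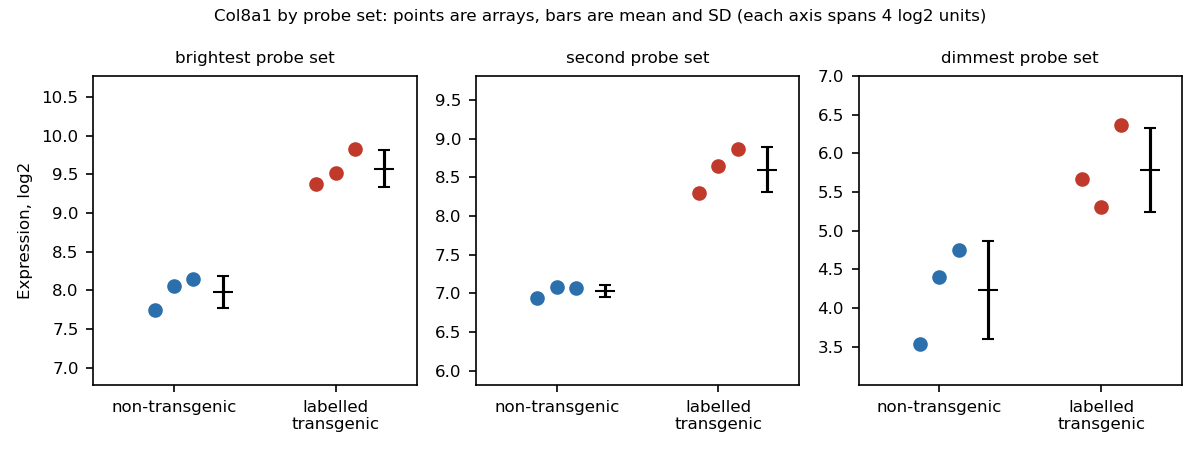
The log2 value (y axis) of the 3 Col8a1 probe sets on each array, with points for arrays in replicate order and bars for the mean and SD of 3 arrays. In each panel every labelled transgenic point lies above every non-transgenic point, and the dimmest probe set has the widest spread.

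Of 11 fibrillar collagen genes 7 were measured, and all 7 had a positive change, with a median of 0.49. None passed the test over the whole array. At an unadjusted limma p under 0.05, 5 of the 7 were higher, beside 10.4% of all genes: Col1a1, Col1a2, Col5a1, Col5a2 and Col27a1. Within station 2 the fibrillar median was 0.88, against non-transgenic array 1 alone. That array stood at -0.54 as the median over fibrillar genes of its deviation from each gene's 6-array mean, below the -0.13 and -0.14 of non-transgenic arrays 2 and 3. Type I collagen is the main fibre of the heart and holds 2 chains of Col1a1 and 1 of Col1a2, and type III, from Col3a1 alone, makes finer and more extensible fibres. The bases before the starts of Col1a2 and Col3a1 are shown because these genes encode those fibres. They come from RefSeq, GRCm38.p6, at chr6:4505368-4505617 and chr1:45311288-45311537, both on the plus strand. Capitals mark motif matches. These are 2 GC boxes, a SMAD motif and a CCAAT box in Col1a2, and in Col3a1 2 SMAD motifs, a TATA box and the MCAT motif bound by TEAD factors.

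Col1a2: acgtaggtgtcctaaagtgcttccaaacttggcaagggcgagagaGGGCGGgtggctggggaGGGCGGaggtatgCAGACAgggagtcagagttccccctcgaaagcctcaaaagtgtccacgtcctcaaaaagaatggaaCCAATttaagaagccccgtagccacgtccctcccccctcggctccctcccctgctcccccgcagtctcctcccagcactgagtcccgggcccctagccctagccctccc

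Col3a1: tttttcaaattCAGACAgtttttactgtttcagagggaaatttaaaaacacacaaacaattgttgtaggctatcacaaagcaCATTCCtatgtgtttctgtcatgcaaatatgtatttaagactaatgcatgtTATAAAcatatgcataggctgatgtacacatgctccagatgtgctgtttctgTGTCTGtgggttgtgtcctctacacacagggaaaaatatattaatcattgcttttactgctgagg

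Col1a1 read 8.95, 9.71 and 9.86 on the labelled transgenic arrays and 8.24, 8.96 and 8.81 on the others. The groups met at labelled transgenic array 1, which lay just below non-transgenic array 2. The change was 0.83 ± 0.29 (limma adjusted p = 0.251), a fold of 1.78 with a 95% interval from 1.09 to 2.92, and within station 2 it was 1.26. A dimmer Col1a1 probe set gave 0.70 ± 0.22 without overlap.

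Col1a2 read 9.56, 10.13 and 10.29 against 9.11, 9.49 and 9.34. The groups did not overlap, though labelled transgenic array 1 came within 0.1 of the highest non-transgenic value. The Col1a2 change was 0.68 ± 0.21 (limma adjusted p = 0.202), and its other measured probe set gave 0.92 ± 0.25 (adjusted p = 0.166), also without overlap.

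Col3a1 read 10.96, 11.67 and 11.91 against 10.59, 11.38 and 11.13. Labelled transgenic array 1 lay below 2 of the 3 non-transgenic arrays, so the groups overlapped. The change was 0.48 ± 0.30 (limma adjusted p = 0.493), and within station 2 it was 0.92. The 2 measured Col3a1 probe sets disagreed in size: the dimmer one read 5.51, 4.95 and 5.27 against 4.13, 4.48 and 4.18. It did not overlap, and its change was 0.98 ± 0.17 (limma adjusted p = 0.0801).

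Type V collagen lies inside type I fibres and sets their width. Col5a1 read 8.64, 9.04 and 9.27 against 8.50, 8.65 and 8.59, with labelled transgenic array 1 inside the range of the others. Its change was 0.40 ± 0.16 (limma adjusted p = 0.298), and 2 dimmer probe sets gave 0.23 and 0.10. Col5a2 read 8.57, 8.78 and 8.92 against 7.47, 8.46 and 8.30. Its groups did not overlap, and the low value of non-transgenic array 1 carried much of the change of 0.68 ± 0.27 (limma adjusted p = 0.288), which was 1.29 within station 2, where that array is the 1 control, and 0.38 without it. Col5a3 read 4.06, 4.03 and 4.10 against 3.59, 4.05 and 4.03, with overlap and a change of 0.17 ± 0.14.

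Col27a1, a fibrillar chain known mainly from cartilage, was close to the brightness filter. It read 4.06, 4.18 and 4.68 against 3.70, 3.70 and 4.05, and the groups were apart by about 0.01. The change was 0.49 ± 0.19 (limma adjusted p = 0.279). The other 4 fibrillar genes, Col2a1, Col11a1, Col11a2 and Col24a1, were not measured. For Col11a1, which joins type V in fibres, the brighter probe set read 2.73, 2.76 and 2.74 against 2.64, 2.76 and 2.73.

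**Figure D3:**
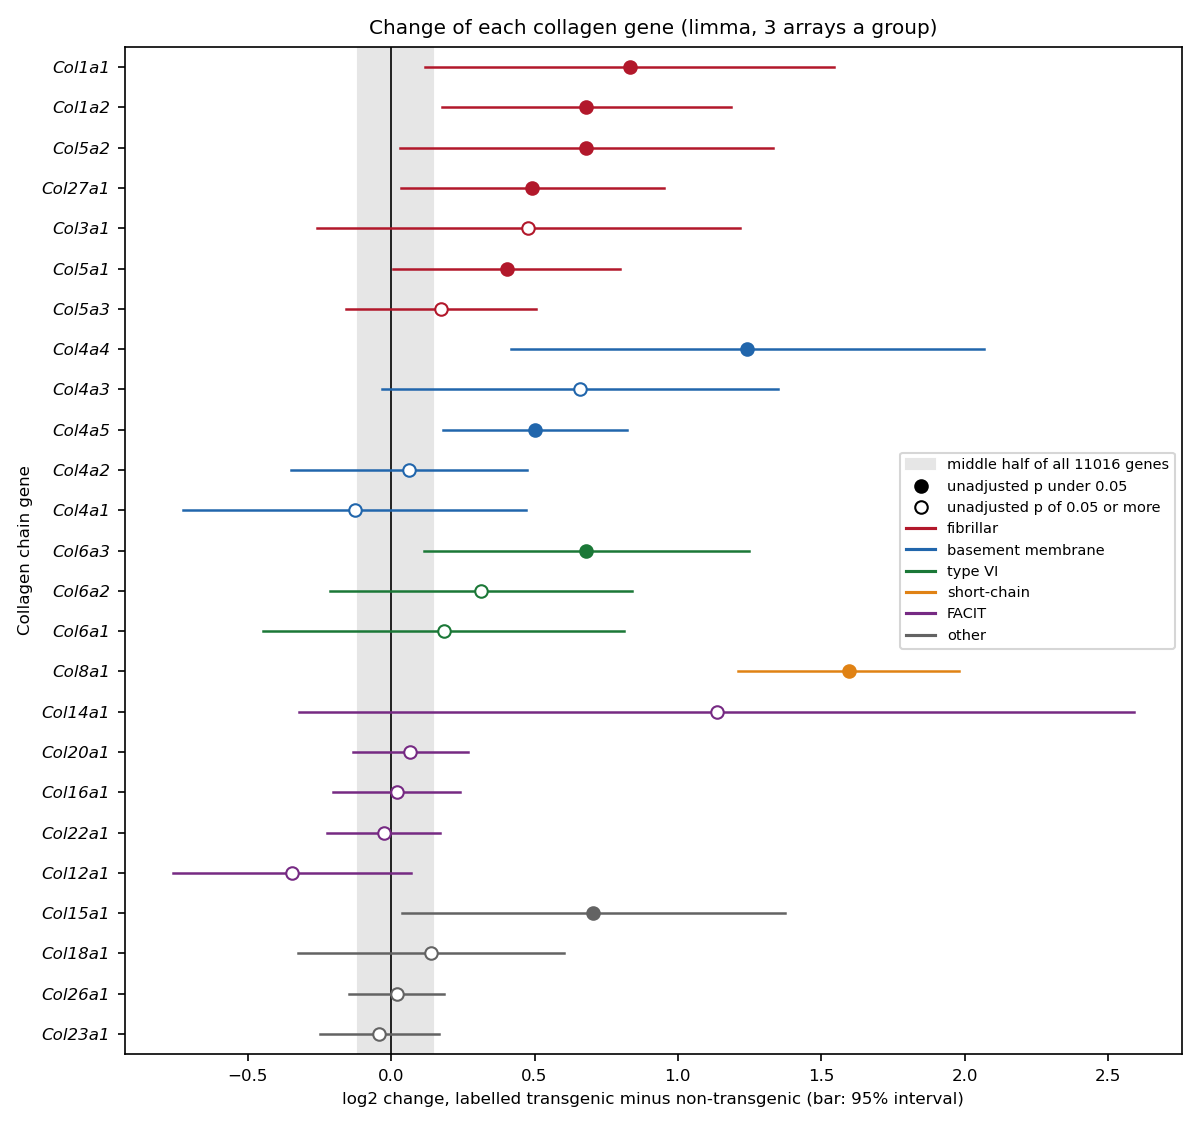
The limma log2 change of each measured collagen gene (x axis, labelled transgenic minus non-transgenic, 3 arrays a group) with its 95% interval, coloured by class. Filled points have an unadjusted p under 0.05; the grey band is the middle of all 11016 genes, from the lower quartile of -0.12 to the upper of 0.15, and all 7 fibrillar points lie to its right.

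The chains of the basement membrane class were spread widely. Of 6 type IV genes 5 were measured, and their changes ran from -0.13 to 1.24 with a median of 0.50. Col4a1 and Col4a2 make the common network of vessels and muscle, whereas Col4a3, Col4a4 and Col4a5 make the separate network best known from the kidney glomerulus. The 3 chains of that network had positive changes, and none passed the test over the whole array. At an unadjusted limma p under 0.05, 2 of them were higher, beside 10.4% of all genes.

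Col4a1 read 11.42, 12.03 and 12.14 on the labelled transgenic arrays and 11.61, 12.17 and 12.20 on the others. The groups lay over each other, with array 1 low in each. The change was -0.13 ± 0.25 (limma adjusted p = 0.844) with a 95% interval from -0.72 to 0.47, and the other probe set gave 0.08 ± 0.22. The sign was not settled: the change was 0.26 within station 2 and 0.10 without labelled transgenic array 1. Col4a2 read 11.10, 11.63 and 11.52 against 11.16, 11.36 and 11.54, with full overlap and a change of 0.06 ± 0.17 (interval -0.35 to 0.48).

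Col4a4 read 6.21, 6.66 and 7.44 against 5.13, 5.84 and 5.61. The groups did not overlap, and labelled transgenic array 3 was highest. Its change was 1.24 ± 0.34 (limma adjusted p = 0.171), a fold of 2.37 with a 95% interval from 1.34 to 4.19. Another Col4a4 probe set gave 1.18 ± 0.36 without overlap, and the dimmest gave 0.17 ± 0.16 with overlap, so the probe sets disagreed.

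Col4a5 read 9.14, 8.92 and 9.34 against 8.70, 8.73 and 8.47, without overlap. Its change of 0.50 ± 0.13 (limma adjusted p = 0.162) ran from 0.40 to 0.61 over 17 alternatives. A second probe set gave 0.39 ± 0.15. Col4a3 was near the filter and read 3.72, 4.61 and 4.46 against 3.20, 3.92 and 3.69. Only labelled transgenic array 1 fell among the non-transgenic values, and the change was 0.66 ± 0.28 (limma adjusted p = 0.326). A second Col4a3 probe set, below the filter, read 2.44, 3.17 and 3.85 against 2.11, 2.44 and 2.43. Col4a6, the partner of Col4a5 in smooth muscle basement membrane, was not measured.

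**Figure D4:**
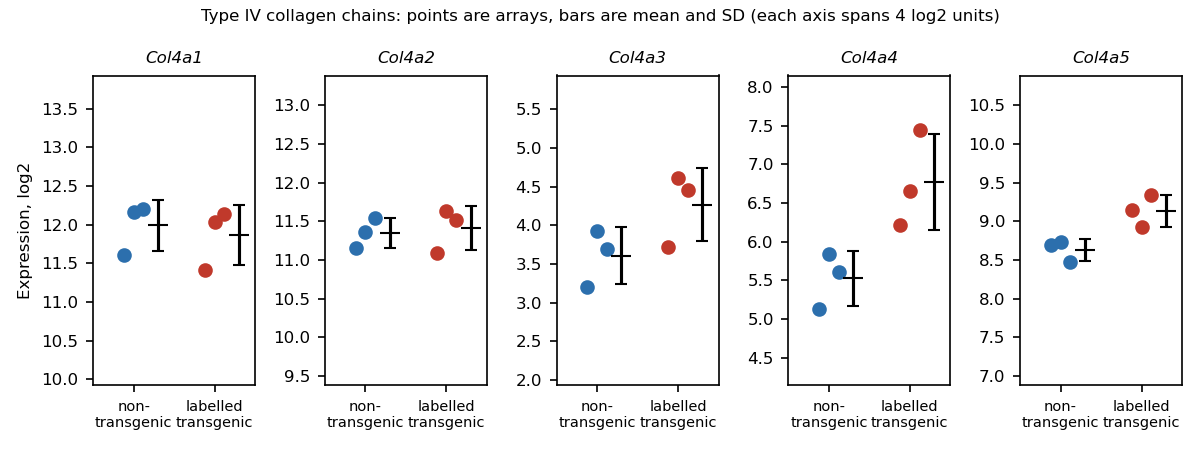
The log2 value (y axis, each spanning 4 units) of the 5 measured type IV collagen genes on each array, with points for arrays in replicate order and bars for the mean and SD of 3 arrays. Col4a1 and Col4a2 overlap between groups, whereas Col4a4 and Col4a5 do not.

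Type VI collagen anchors cells to the surrounding matrix. Of 5 genes on the array 3 were measured, all with positive changes and a median of 0.31, and none passed the test over the whole array. Col6a3, the long chain, read 8.90, 8.61 and 9.09 against 7.75, 8.60 and 8.20. Its groups were apart by about 0.01, and the change was 0.68 ± 0.23 (limma adjusted p = 0.24), 1.11 within station 2. Col6a2 read 8.20, 8.74 and 8.87 against 8.07, 8.60 and 8.20, with a change of 0.31 ± 0.22. Col6a1 read 8.84, 9.46 and 9.80 against 8.94, 9.42 and 9.17. Labelled transgenic array 1 was the lowest of all 6, and the change was 0.18 ± 0.26, or -0.033 without labelled transgenic array 3. The groups of Col6a1 and Col6a2 overlapped. Col6a4 and Col6a5 were not measured.

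The FACIT class had a median change of 0.02. Of 9 genes 5 were measured, and 0 were higher or lower at an unadjusted limma p under 0.05, beside 10.4% and 7.76% of all genes. Col14a1, which binds fibres beside decorin, read 6.45, 5.82 and 7.68 against 4.92, 6.51 and 5.12. Its spread was the widest of all measured collagen genes, with overlap, and the change of 1.14 ± 0.60 (limma adjusted p = 0.408) lay between 0.62 and 1.73 in 17 alternatives. Col12a1, a relative that also coats type I fibres, read 3.23, 3.45 and 2.86 against 3.39, 3.47 and 3.72, a change of -0.35 ± 0.17 (limma adjusted p = 0.378) close to the filter. Col16a1, Col20a1 and Col22a1 had changes from -0.03 to 0.07, each with overlap.

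Among the 8 other collagen genes 4 were measured, with a median change of 0.08. Col15a1 and Col18a1 are multiplexins, collagens of the basement membrane zone that carry sugar chains, and fragments of both are known to restrain vessel growth. Col15a1 read 7.42, 8.20 and 8.52 against 7.23, 7.45 and 7.35. Labelled transgenic arrays 2 and 3 were clearly above the other group and array 1 was inside it. Its change was 0.71 ± 0.27 (limma adjusted p = 0.284), between 0.47 and 1.02 in 17 alternatives. Col18a1 read 4.01, 4.02 and 4.48 against 3.97, 3.78 and 4.34, with overlap and a change of 0.14 ± 0.19, which was -0.016 without labelled transgenic array 3. Col23a1, a transmembrane collagen, and Col26a1 lay just above the filter, with changes of -0.04 and 0.02.

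The other 17 collagen genes had no measured probe set: Col2a1, Col4a6, Col6a4, Col6a5, Col7a1, Col8a2, Col9a1, Col9a2, Col9a3, Col10a1, Col11a1, Col11a2, Col13a1, Col17a1, Col19a1, Col24a1 and Col25a1. Several of these, among them Col2a1, Col9a1 to Col9a3, Col10a1, Col11a1 and Col11a2, are known from cartilage, and Col7a1 and Col17a1 from skin. All 42 collagen probe sets below the filter read between 2.03 and 3.85, and the difference between groups was over 0.1 in size in 5 of them. On such dim probe sets a difference in the tissue could be hidden, so these genes say nothing of a change in either direction. With all 42 genes taken, the median change was 0.027. Of 8 markers of valve and cartilage 3 were measured. Of these, 0 were higher or lower at an unadjusted limma p under 0.05, beside 10.4% and 7.76% of all genes.

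Collagen genes also varied together from array to array within each group. Labelled transgenic array 1 was the lowest of its group in 17 of the 25 measured genes and array 3 the highest in 18. Non-transgenic array 1 was the lowest of its group in 20 and array 2 the highest in 17. As medians over the collagen genes of the deviation from each gene's mean, labelled transgenic arrays 1 to 3 stood at -0.09, 0.12 and 0.49, and non-transgenic arrays 1 to 3 at -0.36, -0.01 and -0.12. Labelled transgenic array 1 thus lay inside the range of the other group on this measure, and arrays 2 and 3 lay above it.

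Col4a1 and Col4a2 also had a low array 1 in each group, and their groups overlapped. For that reason each gene was also read as its log2 value minus the mean of these 2 genes on the same array. This reading was chosen after the data were seen, and it shows unequal change, not that Col4a1 and Col4a2 were constant. Subtracting 2 collagen genes takes the array-to-array pattern that collagens share out of the other collagen genes and puts it into genes without that pattern. The share of all genes without overlap was accordingly 3.89% higher and 0.808% lower, below the 14.3% and 10.9% as deposited, so the collagen share is not read against it. Of the other 23 collagen genes 11, or 47.8%, were then higher without overlap, and 0 were lower. The 11 were Col1a1, Col1a2, Col3a1, Col5a1, Col5a2, Col27a1, Col4a3, Col4a4, Col6a2, Col8a1 and Col15a1. Col4a5 and Col6a3, without overlap as deposited, overlapped in this reading. Relative to Col4a1 and Col4a2, Col1a1 stood at -2.31, -2.13 and -1.98 on the labelled transgenic arrays and at -3.14, -2.80 and -3.06 on the others. Col3a1 stood at -0.30, -0.17 and 0.08 against -0.79, -0.39 and -0.74, so that its groups, which overlapped as deposited, no longer did. Only the difference between arrays can be read from these values, not a ratio of chains.

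**Figure D5:**
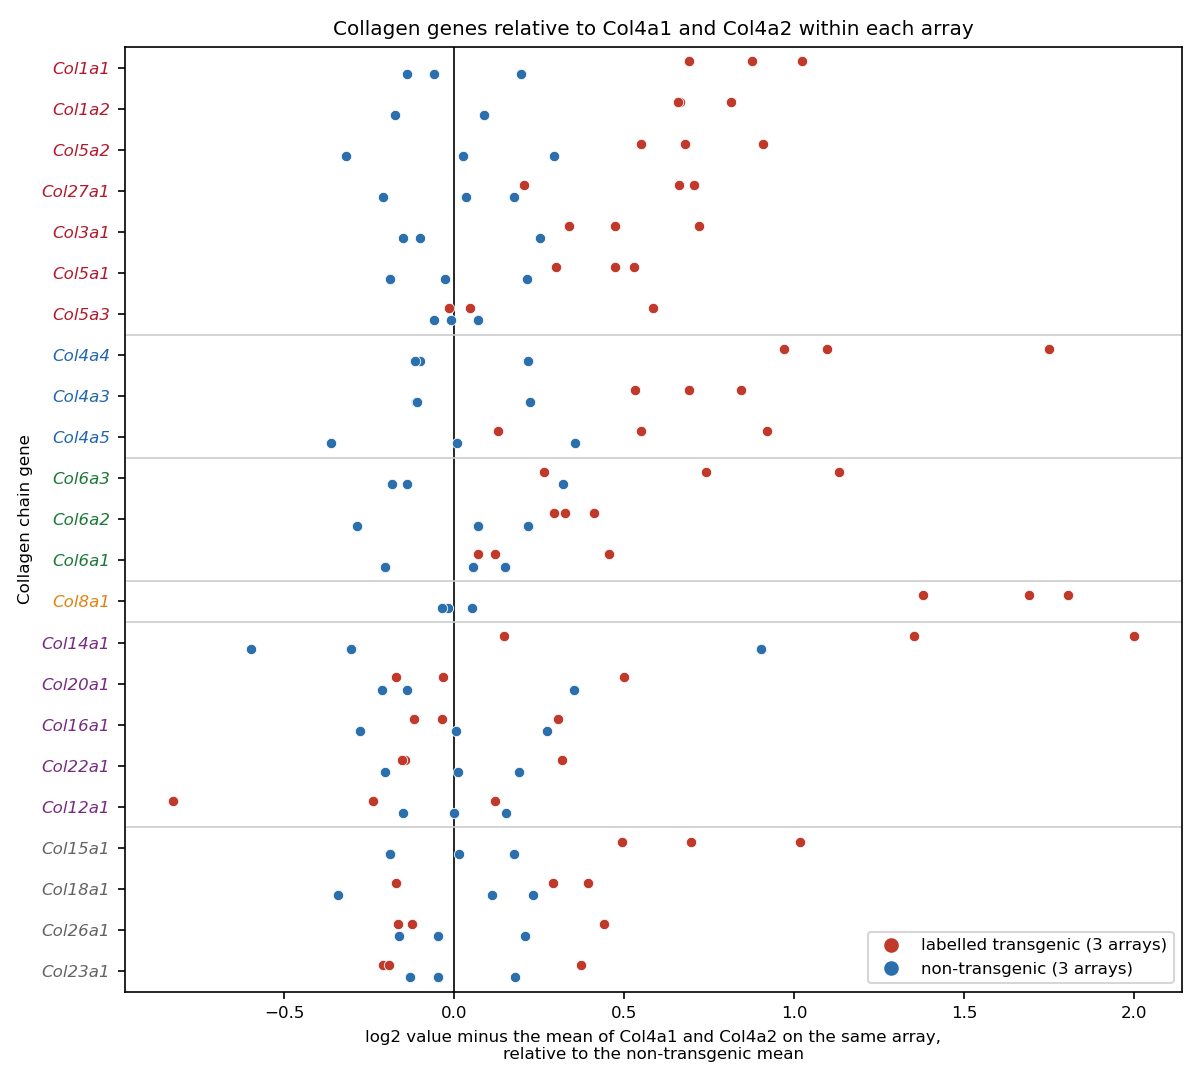
The log2 value of each collagen gene minus the mean of Col4a1 and Col4a2 on the same array (x axis, shifted so that the non-transgenic mean of each gene is 0), with 3 arrays a group. The red points of 6 of the 7 fibrillar genes, all but Col5a3, lie above the blue ones, and the 5 FACIT genes overlap.

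RefSeq promoter windows of 300 bases, 250 before to 50 after the start, were held for 33 of the 42 genes, 36 windows in all. The measured genes Col1a1, Col5a2, Col4a3, Col12a1, Col14a1, Col22a1 and Col26a1 had no entry. Both strands were searched for 6 motifs: the GC box GGGCGG, the CCAAT box CCAAT, the TATA box TATAAA, the SMAD motif CAGACA, the MCAT motif CATTCC and the AP-1 motif TGANTCA. The GC box was in 61.1% of the collagen windows and in 35.7% of all 32851 windows. The SMAD motif was in 22.2% and 21% and the CCAAT box in 36.1% and 37.4%. The TATA box was in 13.9% and 13.6%, the MCAT motif in 13.9% and 14.7%, and the AP-1 motif in 2.78% and 7.81%. The windows of Col4a1 and Col4a2, which lie on opposite strands with starts 21 bases apart, share 78 bases at chr8:11312777-11312854. A match is a description of these letters and not a binding site.

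The genes that modify, process and bind collagen were read from 4 lists, and in the main fit 0 of them passed the test over the whole array. The counts below stand beside 10.4% of all genes higher and 7.76% lower at an unadjusted limma p under 0.05. Of 21 measured genes of chain modification 7 were higher at an unadjusted limma p under 0.05 and 0 lower, with a median change of 0.11. P4ha1, a catalytic subunit of the prolyl 4-hydroxylase that stabilises the triple helix, read 9.00, 9.05 and 9.33 against 7.90, 8.19 and 8.24. Its groups did not overlap, and its change was 1.02 ± 0.13 (limma adjusted p = 0.0646). The change was 0.36 ± 0.08 for P4hb, the other subunit of that enzyme, 0.32 ± 0.10 for P4ha2, a second catalytic subunit, and 0.38 ± 0.12 for P3h3, of the prolyl 3-hydroxylase family.

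Outside the cell, collagen propeptides are cut off and fibres are crosslinked. Of 9 measured genes of these steps 4 were higher at an unadjusted limma p under 0.05 and 1 lower, with a median of 0.21. Pcolce2 and Pcolce, which enhance the cut at the carboxyl end, had changes of 1.04 ± 0.14 (adjusted p = 0.0671) and 0.82 ± 0.13 (adjusted p = 0.078). The change was 0.90 ± 0.20 for Loxl1, of the lysyl oxidase family, and -0.49 ± 0.18 for Adamts3, which cuts the amino end. Of 14 measured fibril partners 5 were higher and 0 lower, with a median of 0.33. The small proteoglycans Bgn, Prelp and Dcn had changes of 1.25 ± 0.20, 0.89 ± 0.19 and 0.38 ± 0.06, and Comp, a fibre-binding protein, had 1.53 ± 0.37. Of 13 measured receptors and breakdown genes 5 were higher and 1 lower, with a median of 0.25. The change was 0.87 ± 0.18 for Mrc2, which takes up collagen fragments. It was 0.29 ± 0.08 and 0.49 ± 0.15 for the collagen receptors Ddr2 and Ddr1, and 0.25 ± 0.08 for Itgb1, the beta chain of collagen-binding integrins.

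Most fibroblast markers, from the cells known to make fibrillar collagen, lay higher in the same hearts. Of 8 fibroblast markers 8 were measured and 5 were higher at an unadjusted limma p under 0.05, with a median change of 0.48. The change was positive in 7 of the 8 and -0.09 for Dpt. Over all genes 10.4% were higher and 7.76% lower by that rule. Their summed level was log2 15.46 to 15.59 on the labelled transgenic arrays and 15.00 to 15.31 on the others. The macrophage markers had 6 of 7 higher, with a median of 0.55 and a summed level of 12.36 to 12.56 against 11.85 to 12.06. Of 5 measured markers of activated fibroblasts 4 had positive changes, with a median of 0.66, and 1, Comp, was higher at that p. Their summed level was 11.33 to 11.84 against 11.13 to 11.96 and rested mostly on Acta2, which smooth muscle also expresses and which had a change of -0.33. The medians were 0.07 for 7 endothelial markers and -0.15 for 8 of smooth muscle and pericytes, of which 3 were lower, and -0.02 for 8 of cardiomyocytes. Comp, Dcn, Lum, Postn and Dpt stand in both a marker list and the list of fibril partners. The 3' minus 5' difference of the actin control probe sets, a measure of RNA integrity, was 0.80 to 0.94 on the labelled transgenic arrays and 0.97 to 1.05 on the others. For the Gapdh control probe sets it overlapped between groups, at 0.110 to 0.115 against 0.110 to 0.164. The part of cell makeup and RNA integrity in the collagen differences was not tested, and in whole tissue more cells of a type and more RNA per cell cannot be told apart.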

How the data were processed

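RNA of mouse heart was measured on 6 Affymetrix arrays, 3 a group, grouped by sample title. The authors deposited 1 log2 value per probe set and array, made with GCRMA per the submitters' processing notes, with its version not given in the sources used here, and the values were used as deposited. GCRMA smooths low values towards a floor, so changes of dim probe sets can be understated. The instrument's text records gave station, scan order and the typed word alone. Of 45101 probe sets 64 controls were left out. Probe sets were kept if they were brighter, as a 6-array mean, than the median probe set. Names came from the platform annotation. All 22518 probe sets kept were fitted with limma 3.58.1 in R 4.3.3 (lmFit, eBayes without trend, 2-sided), with Benjamini-Hochberg adjustment over all of them and a threshold of 0.05. In a check on simulated data for these probe sets the fit recovered 20.9% of changes of 0.5, 84.5% of 1 and 98.1% of 2 (log2), with 5.8% false calls. The simulated noise was independent between probe sets, used the spread that the fit itself had estimated, and held no pattern shared by array. These shares are therefore not the power for the real data. There Col8a1 at 1.60 was called, but Comp at 1.53 and Bgn at 1.25 were not, so an uncalled gene need not have a small change. No 2 arrays shared over 0.0177% of their values. Deviations of same-numbered arrays from their group means had correlations of -0.08, -0.17 and -0.01 over all probe sets. Over the measured collagen genes the correlations were 0.37, -0.48 and -0.43. Such a correlation leaves out a shift that all collagen genes share on an array, so it cannot decide whether replicates were paired. In both groups array 1 was lowest in most collagen genes, but the highest was labelled transgenic array 3 and non-transgenic array 2.

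The collagen genes, classes and lists were chosen with earlier results of these data known. Values on each array are given for genes with a call or an unadjusted p under 0.05 and for the main chains of types I, III to VI, VIII, X to XII, XIV, XV and XVIII, and of each pathway list the 4 with the smallest p are named. The dimmer probe sets printed beside them and the Col4a1 and Col4a2 reading were chosen after values were seen. Alternatives changed the filter, normalization, variance model, array weights, blocks, an Xist term, averaging a gene's probe sets, and each array left out.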

Additional observations from a re-analysis of the deposited data

How the results depend on the processing

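Over 45 results and 753 alternatives, 705 values kept direction and side of the threshold, or stayed within the spread where no test applies. A count was taken as kept while it stayed near its main value, so that 10 genes falling to 7 with quantile normalization was kept. Of the genes followed, Col8a1 alone was called in the main fit, so for the rest keeping the side meant staying uncalled. The 705 is thus a tally and not a measure of how firm the results are. The 2 collagen probe sets called became 0 without the filter, with the replicate block, with the station block and with the Xist term, and ran from 0 to 2 with single arrays left out. The 10 of 25 genes higher at an unadjusted p under 0.05 became 6 of 42 without the filter, 14.3% beside 7.16% of all genes. With the Xist term 5 of 25 were higher, 20% beside 8.62%. The count ran from 4 to 11 with single arrays left out, or 16% to 44%, beside 6.94% to 10.4% of all genes. The 7 genes without overlap became 11 of 23 relative to Col4a1 and Col4a2, where Col4a5 and Col6a3 were no longer among them. That reading was chosen after the data were seen, because the groups of Col4a1 and Col4a2 overlapped. By it 3.89% of all genes were higher without overlap, a share that the subtraction itself moves. The 11 are therefore not a stronger result than the 7. As deposited, the count ran from 7 to 14 with single arrays left out, or 28% to 56%, beside 16.7% to 22.5% of all genes. Without the filter the collagen median was 0.027 and the short-chain median 0.10, since 17 dim genes then enter. Under the stricter filter the median of the other class was 0.71, since it then holds Col15a1 alone. With the station block the fibrillar median was 0.88 and the short-chain median 1.83. Among the named genes of the pathway lists, uncalled in the main fit, the limma adjusted p was under 0.05 for Pcolce2 in 4 of 17 alternatives and for P4ha1 in 3. For Bgn and for Dcn it was in 1 each. With a gene's probe sets averaged, changes moved both ways, to 0.14 for Itgb1, 0.29 for Dcn and 1.13 for P4ha1. Signs turned for 4 genes with small changes. With the station block Col4a1 was at 0.26. With single arrays left out Col4a1 ran from -0.32 to 0.097, Col4a2 from -0.042 to 0.22, Col18a1 from -0.016 to 0.29 and Col6a1 from -0.033 to 0.45. Where no construction is named, the cause was not tested. The labels state no pairing by replicate number. The correlations between same-numbered arrays cannot decide it, since they leave out a shift that all collagen genes share on an array. With the replicate block 0 probe sets of the whole array passed. By that fit 12 of 25 collagen genes, or 48%, were higher at an unadjusted limma p under 0.05, beside 9.23% of all genes. Signal near the floor limits what the dim genes can show.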

Other observations

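Other marker lists gave few measured genes. Of 5 adipocyte markers 1, Fabp4, was measured, with a change of -0.25 and a limma adjusted p of 0.234. Of 5 epicardial markers 1 was measured, with a change of 0.17, and the 2 measured atrial markers had a median change of -0.20. Of 4 skeletal muscle markers 3 were measured, with a median of 0.02. Acta1, the skeletal alpha actin that heart muscle also expresses, had a change of 2.07 (limma adjusted p = 0.0671) without overlap. It carried the list's summed level, log2 15.54 to 15.86 on the labelled transgenic arrays against 14.92 to 15.12 on the others. Ckm had a change of -0.17 and was lower without overlap, and Myh4, near the floor, had 0.02. The summed level of the lung markers, all below the filter, was 4.19 to 4.21 against 4.14 to 4.24.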
